A study of Mus musculus with 2 samples.

Results

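The genes described are 7 that encode enzymes of heme synthesis, Alas1, Alad, Uros, Urod, Cpox, Ppox and Fech, taken as a named list and not by any measured value, among 20564 protein-coding mouse genes with a placed transcription start site (TSS). The study mapped the transcription factor NRF1 (nuclear respiratory factor 1) by chromatin immunoprecipitation and sequencing, in 2 libraries that the labels number as biological replicates 1 and 2. The cells were CH12.LX, an immortalized mouse B-cell lymphoma line of strain B10.H-2aH-4bp/Wts, labelled female and of unknown age, with no treatment named. Both libraries belong to 1 group of the same line, so no groups were compared, and NRF1 peaks do not measure expression, so the cell type was not checked against marker genes. No read totals came with the peak lists, which leaves the depth of the libraries unknown, and every value rests on 2 libraries.

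Heme is an iron-bearing porphyrin ring that serves as the prosthetic group of cytochromes, catalase and hemoglobin. Its synthesis begins in mitochondria, where ALAS1 condenses glycine with succinyl-CoA to aminolevulinic acid, continues in the cytosol through ALAD, UROS and UROD, and returns to mitochondria for CPOX, PPOX and FECH, the ferrochelatase that inserts iron. ALAS1 is the housekeeping form of the rate-limiting enzyme, and ALAS2 is the form of red cell precursors. NRF1 binds a GC-rich palindrome-like site in promoters and takes its name from nuclear genes of mitochondrial respiration that it activates. Alas1 is a textbook target. NRF1 is a different protein from NFE2L1, which shares the alias.

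The closest matches are shown first, for the 4 promoters that came within 2 mismatches of the NRF1 consensus. It was searched on both strands in its palindromic form, in capitals in the downstream Alas1 sequence, and in a form whose sixth base is C, in capitals as its reverse complement in the Alas1 sequence at the start site. In the other sequences capitals mark the 10 bases closest to either form. The sequences are RefSeq promoter sequences on GRCm38.p6, the build mm10, read along each gene.
Alas1, at the start site: tcggcgcGCGCGTGCGCgcggcag
Alas1, downstream: acccaagGCGCATGCGCggcggtc
Uros: tcacactGCGCCTGCGCgagtccc
Alad: cccacgtGGGCTTGCGCttttaga
Cpox: aggaggcCCGCGTGCGAgcagcag

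Both Alas1 sites matched the consensus exactly. The one at the start (chr9:106247945-106247954, on the minus strand) had its centre 11 bp from the summit of the peak. The other (chr9:106247916-106247925) lay 17 bp from the summit on its other side. These labels hold for the outer Alas1 start (106247954). From the other start in the promoter table (106247730) the site centres lay at -219.5 and -190.5 bp, upstream. Both sites lay in a UTR of Alas1 in the mm9 annotation (GENCODE vM1), upstream of the nearest start there. In Uros the closest stretch (chr7:133709333-133709342) carried a single substitution, A5C, with positions counted from 1 at the 5' end of the palindromic form, and its centre was 8 bp from the summit. On mm9 it fell in an intron of Uros and in a UTR exon of the gene Bccip. The closest stretch of Alad (chr4:62519923-62519932) differed at 2 bases, C2G and A5T, and that of Cpox (chr16:58670167-58670176) at 2 bases, G1T and C10G against the form with C on the opposite strand, at 19 and 65 bp from the summits.

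No stretch of the 300-base promoter of Urod came closer than 3 mismatches and none of Ppox closer than 4. The 60 bases around the Urod summit (chr4:116994465-116994524, minus strand) are shown for contrast. On neither strand do they hold a GC box, searched as GGGCGG, or a CCAAT box. They also lack the ETS site, searched as CCGGAAG.
Urod: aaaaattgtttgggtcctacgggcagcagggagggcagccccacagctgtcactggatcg
The Fech promoter has no entry in the promoter table used.

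The optimal set, which the authors selected by how far peak ranks recur between replicates (irreproducible discovery rate), had a peak with its summit within 1000 bp of the TSS at 5 of the 7 genes, Alas1, Alad, Urod, Cpox and Fech. Of all protein-coding genes, 37.6% had such a peak. Here the TSS is the outer end of the RefSeq gene span, and for Uros that choice decided the count. The Uros peak lay 1138 bp inside the outermost start but 34 bp upstream of a start (133709295) that the RefSeq promoter table gives. With the starts of that table, 6 of the 7 genes had a peak, against 40.2% of all genes, and Ppox was the remaining gene. Fech and the other genes among the 4044 with no entry kept their gene span start in that count.

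**Figure D1:**
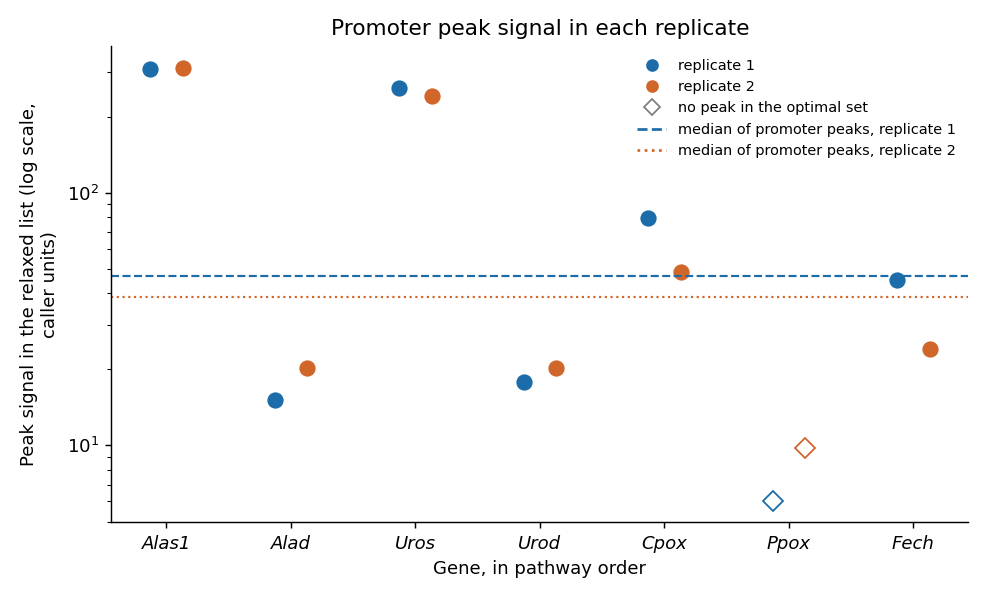
Signal of the promoter peak of each gene in the relaxed list of replicate 1 and replicate 2 (log axis, units of the authors' caller), in the order of the pathway. Lines mark the median signal, in each replicate, of the promoter peaks of the optimal set, which leaves out weaker relaxed peaks. Alas1 at 310 and 313 and Uros at 260 and 242 stand far above the medians of 46.9 and 38.6, and Ppox at 6.05 and 9.78 far below them.

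Alas1 carried the strongest peak of the 7. The signal was 310 in replicate 1 and 313 in replicate 2 (mean 312 ± 1.94, SD, n = 2), and 621 in the optimal set (chr9:106247731-106248159). That value ranked 292 of 17547 peaks and lay at percentile 96.6 of the 7736 promoter peaks, whose median was 86.0 (quartiles 36.1 and 419). The replicate ratio of 0.991 was the nearest to 1 among the members, and the summits were 9 bp apart. A long noncoding RNA gene, 4930500F10Rik, starts 118 bp away on the opposite strand, and the summit lay 134 bp upstream of its start.

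Uros, the enzyme that closes the porphyrin ring, came next. Its signal was 260 in replicate 1 and 242 in replicate 2 (mean 251 ± 13, SD, n = 2), and 501 in the optimal set (chr7:133709144-133709504), at percentile 82.0 of promoter peaks. Both replicates were high, and their summits were 11 bp apart. The peak is shared: Bccip, which encodes a BRCA2-interacting protein, starts on the opposite strand only 38 bp from the nearest Uros start, and the summit lay 4 bp upstream of the Bccip start. A peak between such starts cannot be assigned to either gene from these lists. Of all 7736 genes with a promoter peak, 23% had a summit that also lay within 1000 bp of another protein-coding start.

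The remaining cytosolic enzymes had weak peaks. Alad, which joins aminolevulinic acid into porphobilinogen, gave 15.1 in replicate 1 and 20.2 in replicate 2 (mean 17.6 ± 3.6, SD, n = 2), and 33.2 in the optimal set (chr4:62519775-62520118, percentile 22.0). Urod, which removes carboxyl groups from uroporphyrinogen, gave 17.8 and 20.3 (mean 19.0 ± 1.77, SD, n = 2), and 35.3 in the optimal set (chr4:116994322-116994665, percentile 24). Replicate 2 was the higher one at both genes, and both optimal values lay under the lower quartile of promoter peaks. Among promoter peaks of the mm9 set they stood at percentile 8.34 for Alad and 13.6 for Urod, and among all optimal peaks, whose median was 38.0, at 45.1 and 47.4. The Urod summit lay 58 bp upstream of its own start and 802 bp upstream of the start of Hectd3, a ubiquitin ligase gene on the other strand.

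Of the mitochondrial enzymes of the late pathway, Cpox and Fech had peaks near the middle of all promoter peaks. Cpox, which oxidizes coproporphyrinogen, gave 79.2 in replicate 1 and 48.5 in replicate 2 (mean 63.8 ± 21.7, SD, n = 2), and 127 in the optimal set (chr16:58670065-58670408, percentile 56.0). Fech gave 45.1 and 24.1 (mean 34.6 ± 14.9, SD, n = 2), and 62.3 in the optimal set (chr18:64488864-64489207, percentile 43.2). Replicate 1 was the higher one at both genes, by 1.63 times at Cpox and 1.87 times at Fech. Over the 6805 promoter peaks found in both replicates the median ratio of replicate 1 to replicate 2 was 1.07 (quartiles 0.951 and 1.38). Cpox and Fech lie above the upper quartile, and Alad at 0.748 and Urod at 0.877 lie below the lower one. The order of Cpox and Fech among the members was the same in each replicate.

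Ppox, which oxidizes protoporphyrinogen, had no promoter peak in the optimal, the conservative or the mm9 set. Its highest relaxed peak reached 6.05 in replicate 1 and 9.78 in replicate 2 (mean 7.91 ± 2.64, SD, n = 2), with summits at -560 and -424 bp from the start, 136 bp apart. These values were low beside optimal promoter peaks in both libraries. A relaxed peak of any height was found at 60.7% of gene promoters in replicate 1 and at 60.3% in replicate 2. Where genes without an optimal promoter peak had one, the median of the highest was 4.55 in replicate 1 (upper quartile 7.22). In replicate 2 it was 4.76 (upper quartile 7.08). Ppox thus lay above that median in replicate 1 and above the upper quartile in replicate 2. Its value in replicate 2 still ranked 17246 in that list, just inside the 17547 highest, of which the lowest had a signal of 9.62. In replicate 1 it ranked 37963, well outside.

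The order of levels was therefore Alas1, Uros, Cpox, Fech, Urod, Alad and Ppox in the optimal and pooled lists. Each replicate gave this order. Urod and Alad, at 20.3 and 20.2 in replicate 2, do not differ beyond the spread between replicates. Cpox and Fech did not overlap but came close, with 48.5 for Cpox in replicate 2 and 45.1 for Fech in replicate 1. Alas1 and Uros did not overlap with each other or with any other member. The range from Urod to Alas1 crossed most of the range of promoter peaks, so the genes of this single pathway did not share a level of NRF1 signal.

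The level also did not follow the compartment of the enzyme. The mitochondrial group held the highest member, Alas1, the intermediate Cpox and Fech and the lowest, Ppox, and the cytosolic group held Uros at 501 beside Alad at 33.2 and Urod at 35.3. The Uros peak is shared with Bccip and cannot be assigned to either gene. Without Uros the cytosolic members were both weak, and only the mitochondrial group spread widely.

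**Figure D2:**
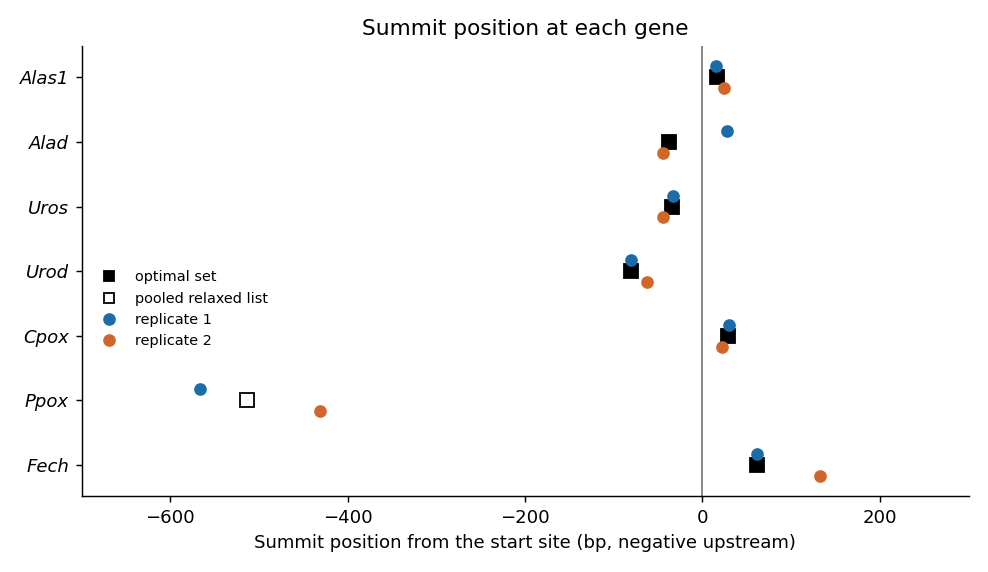
Position of the summit from the nearest start of the RefSeq promoter table (for Fech, from the start of the gene span) in bp, negative upstream, in the optimal set (for Ppox, the pooled relaxed list) and in each replicate. The optimal summits of the other 6 genes fall between -81 and 62 bp, and that of Ppox at -513 bp.

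Summits sat close to the starts. In the optimal set they lay at 16 bp for Alas1, -34 bp for Uros, -38 bp for Alad, 29 bp for Cpox and -81 bp for Urod from the nearest start of the promoter table, and at 62 bp for Fech from the start of its gene span. Replicate summits were 8 bp apart at Cpox, 9 bp at Alas1 and 11 bp at Uros. They were 19 bp apart at Urod and 72 bp apart at both Alad and Fech. The median over promoter peaks was 13 bp (upper quartile 36.0), so Alad and Fech lay beyond the upper quartile. In the mm9 annotation the summits of Alas1 and Cpox fell in a UTR, that of Uros in an intron, that of Fech in coding sequence, and those of Alad and Urod upstream of the gene.

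Peak shape at Cpox differed from the rest. The peak of replicate 1 was 89 bp wide (58670182 to 58670270), against 350 bp in replicate 2 and 344 bp in the optimal set, while the replicate peaks of the other members ran from 310 to 404 bp. Cpox alone among the members had more than a single peak in its promoter: further optimal peaks had signals of 19.6 at -647 bp and 9.97 at 229 bp, the second of which overlaps the main peak. Of genes with a promoter peak, 2.21% had 3 or more. The peak at -647 bp was present in both replicates, at 9.39 in replicate 2, and the peak at 229 bp overlapped a separate relaxed peak of its own only in replicate 2 (13.9).

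**Figure D3:**
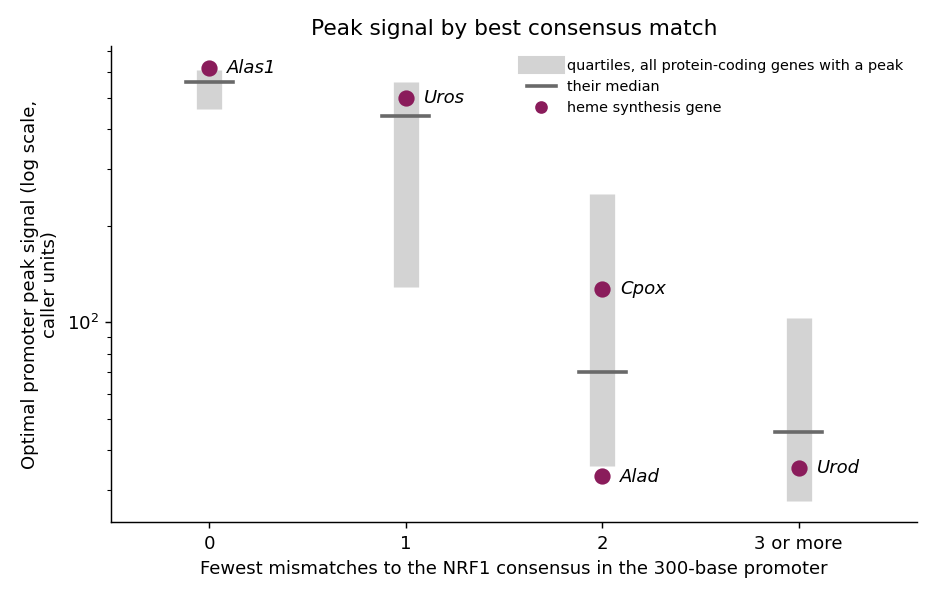
Signal of the optimal promoter peak (log axis, units of the authors' caller) against the fewest mismatches to the NRF1 consensus in the 300-base RefSeq promoter, for the 5 heme synthesis genes with both values, over the quartiles and median of all protein-coding genes with a peak in each class, which counts peaks by the gene span start. Alas1 lies above the median of 559 for exact matches, Uros above the 438 for 1 mismatch, and Alad and Urod below the medians of 69.9 and 45.5.

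The 2 members with a close match under the summit, shown above, were the 2 with the highest signal. Exact matches are rare: 3.70% of 16520 genes had one in a 300-base RefSeq promoter, and 0.357% had 2 or more, as Alas1 did. A match with up to 1 mismatch, as in Uros, was found for 15.0%, and one with up to 2, as in Alad and Cpox, for 39.9%. By the gene span start, which leaves Uros out, genes with an exact match had a promoter peak in 84.5% of cases with a median signal of 559, and those with 3 or more mismatches in 23.7% with a median of 45.5. Cpox, at 127, exceeded the median of its class (69.9), whereas Alad at 33.2 lay under its lower quartile of 35.8.

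On mm9, within 50 bp of the summit, the closest match had 0 mismatches at Alas1, 1 at Uros, 2 at Alad and Fech, 3 at Cpox and 4 at Urod. In that set the signals were 11091 at Alas1, 2227 at Uros, 192 at Cpox, 97.1 at Fech, 47.1 at Urod and 42.0 at Alad, on another scale than the mm10 values. The same 2 genes led, and below them a closer match did not go with a higher signal. In the 1000 bp around a start, exact matches stood at 1 of the 7 genes (5.22% of all genes) and matches with up to 1 mismatch at 4, Alas1, Uros, Cpox and Fech (25% of all genes). The matches of that kind at Cpox and Fech lay 302 and 475 bp from their summits and outside their mm9 peaks. A match is a description of letters and does not show that NRF1 touched them.

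GC content of the 300-base promoter at the start nearest the peak ran from 53.3% at Urod to 71.3% at Alad. The ratio of observed to expected CpG there ran from 0.581 at Cpox to 1.16 at Uros. The medians over all genes were 57.7% and 0.635, but with each gene taken at its highest start. Among these promoters Alad, which had a weak peak, held the most CpG dinucleotides (33). The promoter of the other Alas1 start (106247730) held more, 44, with a GC content of 73.3%. A GC box (GGGCGG) was present in 5 of the 6 promoters, all but Cpox, and at any start in 51.1% of all genes. An ETS site (CCGGAAG) was present at Alad and Uros, and at any start in 13.3% of all genes. On mm9, 6 of the 7 genes, all but Ppox, had a CpG-rich promoter, meaning GC above 50% and a ratio above 0.6 in the 1000 bp around a start. Among such genes the share with a peak was 61.2%, and 5 of the 6 had one by the gene span start, Uros being the exception.

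The counts were read against the same share under each other peak list. The conservative set had a peak at the same 5 genes, with 36.3% of all genes. The 17547 highest peaks of replicate 1 alone gave these 5 (38.8% of all genes), and those of replicate 2 alone gave 6 by adding Ppox (37.5%). The mm9 set with all annotated starts gave 6, all but Ppox (33.1%). With only the 8773 optimal peaks of higher signal, 3 genes were left, Alas1, Cpox and Fech (27.6%), since Alad and Urod fell out. Promoters of 500 bp kept the 5 genes (34.5%), and promoters of 2000 bp (40.0%) or any overlap of peak and promoter (38.1%) added Uros.

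The genes most like Alas1 over the 2 libraries were Brd2, Sltm and Ddx59. Among 7682 genes compared by the Euclidean distance of their log2 signals in both replicates, Brd2 (311 and 313) was at 0.00352, Sltm (311 and 313) at 0.00421 and Ddx59 (311 and 314) at 0.00469.

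**Figure D4:**
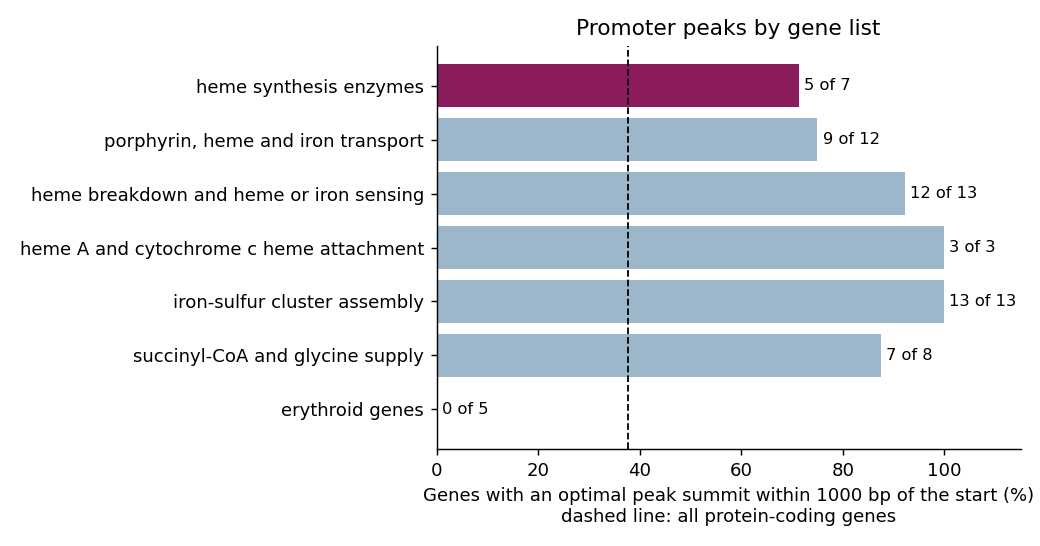
Percentage of the genes of each list with an optimal peak summit within 1000 bp of the gene span start, with the counts beside the bars and a dashed line at 37.6%, the share of all protein-coding genes. The 5 lists of partner genes lie above the line and the erythroid list, which holds no gene with a CpG-rich promoter, is at 0.

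Genes that feed, move and use heme were described with lists written from textbook knowledge. Without the erythroid genes, 44 of 49 genes in these lists had a promoter peak, beside 37.6% of all genes, and 42 of the 49 had a CpG-rich promoter, of which 37 had a peak, beside 61.2% of all CpG-rich genes. These lists are small, and no test was made on them.

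Of 8 genes for succinyl-CoA and glycine supply, the substrates of ALAS1, 7 had a peak, all but Suclg1. Their levels spread widely, from 29.6 at Suclg2 and 33.3 at Dlst, under the lower quartile of promoter peaks, through 129 at Shmt1 to the strongest. Shmt2, the mitochondrial serine hydroxymethyltransferase that yields glycine, reached 634 in the optimal set. Its signal was 307 in replicate 1, below Alas1, and 328 in replicate 2, above it. Ogdh, the first subunit of the oxoglutarate dehydrogenase complex, reached 611 (315 and 299) and Dld, its dihydrolipoamide dehydrogenase, 603 (302 and 303). The summit of Ogdh lay 961 bp inside the gene span start and at a start of the promoter table (0 bp).

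All 13 genes of iron-sulfur cluster assembly had a peak in the optimal set, and 8 of the 13 in the mm9 set, where Hspa9 had none. FECH itself carries such a cluster. Hspa9, a mitochondrial chaperone, reached 531 (272 and 260), Nfu1 527 (267 and 263) and the scaffold gene Iscu 484 (244 and 244). Of 3 genes for heme A and heme attachment, all had a peak in the optimal set, none of them above the median promoter peak. These were Cox10 at 61.8 (22.0 and 40.0), Cox15 at 43.1 (24.3 and 18.0) and Hccs at 11.6 (5.53 and 7.28). Hccs had no peak in the conservative set, the mm9 set or the highest peaks of either replicate alone. Its signal lay below that of Ppox (6.05 and 9.78) in each replicate, although Ppox had no optimal promoter peak.

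Transport genes had peaks in 9 of 12. Abcb10, a transporter of the inner mitochondrial membrane needed for heme production, reached 574 (297 and 281). Flvcr2 reached 255 (150 and 104), with its summit at -592 bp and no peak in the mm9 set. Tmem14c, needed for porphyrin import, reached 241 (123 and 119). Slc25a37, the mitochondrial iron importer mitoferrin 1, Slc25a39 and Abcg2 had none by the gene span start, though with the starts of the promoter table Slc25a39 had a peak of 108 and Abcg2 of 75.8, and the mm9 set had a peak of 43.2 at Slc25a37. In the list of heme breakdown and of heme or iron sensing, 12 of 13 had a peak, all but Eif2ak1, the heme-regulated kinase. In the conservative set 10 of the 13 had one, without Blvra and Aco1, and in the mm9 set 9. Nr1d1, a heme-binding nuclear receptor, reached 600 (296 and 307), Pgrmc2 560 (282 and 282) and Clpx, the mitochondrial protease subunit known to act on ALAS, 519 (271 and 250).

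The red cell genes listed had no optimal peak within 1000 bp of the start. Alas2, the erythroid counterpart of Alas1 on the X chromosome, had none in the optimal set and no relaxed peak within 1000 bp in either replicate. Of the erythroid genes Gata1, Klf1, Slc4a1, Epb42 and Hba-a1, 0 of 5 had a promoter peak, beside 37.6% of all genes. That allows a share of up to 60% at 3 counts of the total, so the count does not set them apart. None of them has a CpG-rich promoter, and peaks were more common at CpG-rich genes (61.2%) than at all genes. Hbb-bt had no placed start and was not counted. The highest relaxed value among the 5 was 6.88, at Slc4a1 in replicate 2. Promoters of 2000 bp held a peak at 1 of the 5, Klf1.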

How the data were processed

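NRF1 peaks were analysed as deposited from 2 libraries of 1 group. Per the deposited notes, relaxed lists of 300000 peaks and background exist on mm10 for either replicate and for the pool, each made with a control. The authors selected the conservative (15941 peaks) and optimal (17554) sets from them by irreproducible discovery rate, and a set of 11217 peaks was made on mm9 from both replicates. Neither the caller with its settings nor read totals were given in the sources used here. The deposited signal of the authors' caller, whose scaling is not stated, was ranked within each list. Values of the replicate lists were set side by side without rescaling, and no signal was compared between builds. Percentiles within each set, counts and summit positions from a start were given for both builds. The score columns deposited on mm10 and the −log10 significance deposited on mm9 entered no result.

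The 17547 optimal peaks on chromosomes 1 to 19 and X were used. Of 21631 protein-coding RefSeq genes (GRCm38.p6), 20564 took a strand from GENCODE vM1 by symbol or synonym, and 1067 did not and were left out. Promoter table starts matched 16520 genes by gene ID, 6 of the 7 members among them, and their use was added after the data were seen. In 1741 genes no such start lay within 1000 bp of the gene span start. Replicate values are those of the highest relaxed peak overlapping the optimal peak. Sequence at mm9 peaks came from NCBIM37, and no coordinate was converted. The design holds no comparison of groups, so no test was made. Members and lists were chosen with earlier results of these data known. Named genes were the members, the 3 strongest genes and those without a peak in each list, genes starting within 1000 bp of a member summit, and the 3 genes most like the strongest member. Some genes that this rule names are not reported here. Scripts (Python 3.11.15, numpy 2.4.6, pandas 2.3.3) were tested on simulated data.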

Additional observations from a re-analysis of the deposited data

How the results depend on the processing

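The count of heme synthesis genes with a promoter peak was 5 of 7 and ran from 5 to 6 when either replicate was left out, with Ppox added without replicate 1. With only the optimal peaks of higher signal it fell to 3. The starts of the RefSeq promoter table, added after the data were seen, gave 6. The count of pathway genes stayed within 1.5 times of its 44 under each alternative run (32 to 46), but single lists moved more: iron-sulfur cluster assembly went from 13 to 8 in the mm9 set and transport from 9 to 5 with the higher-signal peaks. Heme breakdown and sensing went from 12 to 9 in the mm9 set. Heme A and heme attachment went from 3 to 2 in the conservative set, the mm9 set and either replicate alone. The percentile of Alad went from 22.0 to 45.1 among all optimal peaks and 8.34 in the mm9 set, and that of Urod from 24 to 47.4 and 13.6. Promoters with an exact consensus were 1 of 7, rising to 4 with up to 1 mismatch and to 7 with a lone end of the site, TGCGC or its reverse complement, which 67.6% of all promoters hold. The side of the start on which a summit lies changed for 3 genes with the start used: it became -79 bp at Alas1, -2 bp at Alad and -50 bp at Uros by the nearest GENCODE start on mm9, and -38 bp at Alad and -34 bp at Uros by the promoter table. No paired analysis was possible because the libraries form 1 group. Depth is unknown, so weak peaks such as those of Alad and Urod and the lack of one at Ppox carry no detection limit.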
